A study of Mus musculus with 3 samples.

Results

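The mouse satellite repeats described here are the 3 repeat names GSAT_MM, SYNREP_MM and MurSatRep1, chosen by name from the 18484 repeat names counted, of which 1475 had a read in any library. The counts come from RNA immunoprecipitation sequencing, in which RNA that comes down with an antibody is recovered from tissue lysate and sequenced. The material was hippocampus of C57BL/6-background mice aged 9 months. The first library, here ZBP1-PS19, holds RNA that came down with an antibody to ZBP1 from PS19 mice. The second, ZNA-PS19, holds RNA from the same genotype that came down with an antibody to Z-form nucleic acid (ZNA), and the third, ZNA-WT, is the ZNA pull-down of wild-type (WT) mice. PS19 mice carry a mutant human tau transgene driven by the mouse prion protein promoter, and WT mice carry none. ZBP1 is a sensor of nucleic acid in the left-handed Z form. With 1 library per group, no value below has a replicate error and no difference has a replicate check. The labels do not say whether a library pools several mice, and no input, isotype-control or WT ZBP1 library was analysed here, so a level is not an enrichment over the starting RNA. The counts list repeats and no genes, so the tissue could not be checked against marker genes.

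Satellites are repeats arranged head to tail in long arrays. GSAT_MM is the mouse major satellite, which makes up the heterochromatin beside each centromere, and SYNREP_MM is the RepeatMasker name usually read as the minor satellite of the centromere itself. MurSatRep1 is a further satellite-type name of the mouse repeat library. Major and minor satellite arrays are normally packed in silent or specialised chromatin, and they can be transcribed at a low level from either strand. Most of these arrays are missing from mouse genome assemblies, so reads could be counted only on the copies an assembly holds. A count pools all such copies, which leaves chromosome, strand and sequence of the source copy unknown.

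The libraries held 1425383 (ZBP1-PS19), 2918985 (ZNA-PS19) and 3234786 (ZNA-WT) reads on repeat names. The share on the 2 ribosomal RNA names was 94.8%, 89.4% and 95.5% in the same order, which left 74474, 308613 and 145372 reads outside rRNA. Because this remainder was not the same share of each library, every satellite value is given as CPM, reads scaled to a total of 1000000, over the library total and again as non-rRNA CPM, over the reads outside rRNA. Intervals are exact 95% intervals for counting error, and the spread between libraries prepared alike is not in them.

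The CPM of the major satellite was at its highest in ZBP1-PS19 on both scales. GSAT_MM had 158 reads in ZBP1-PS19, 168 in ZNA-PS19 and 112 in ZNA-WT. Per library total these were 111 CPM (exact Poisson interval 94.2 to 129.5), 57.6 CPM (49.2 to 66.9) and 34.6 CPM (28.5 to 41.7). The intervals of the 3 libraries did not overlap on this scale, with ZBP1 highest and WT lowest. In non-rRNA CPM, GSAT_MM stood at 2122 (1804 to 2479) in ZBP1-PS19, 544 (465 to 633) in ZNA-PS19 and 770 (634 to 927) in ZNA-WT. On this second scale the order of the ZNA libraries was turned round, and their intervals did not overlap by a narrow margin.

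SYNREP_MM rested on far fewer reads, 21 in ZBP1-PS19, 21 in ZNA-PS19 and 11 in ZNA-WT. These were 14.7 CPM (9.12 to 22.5), 7.19 CPM (4.45 to 11) and 3.40 CPM (1.70 to 6.08). Its order over the libraries per library total was that of GSAT_MM, but the intervals of neighbours in that order overlapped. In non-rRNA CPM it stood at 282 (175 to 431), 68.0 (42.1 to 104) and 75.7 (37.8 to 135), with the ZBP1 interval above those of both ZNA libraries and the ZNA libraries not separable at this depth.

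MurSatRep1 ran the other way. It had 279 reads in ZBP1-PS19, 1746 in ZNA-PS19 and 958 in ZNA-WT. Per library total these were 196 CPM (173 to 220.1), 598 CPM (570.4 to 627) and 296 CPM (278 to 316), so that ZNA-PS19 was highest. In non-rRNA CPM it stood at 3746 (3320 to 4213), 5658 (5395 to 5929) and 6590 (6179 to 7021), so that WT was highest. ZBP1-PS19 was lowest on both scales, without overlap. The share of all repeat names whose intervals also did not overlap was not counted. A lack of overlap therefore does not set any of the satellite names apart from other repeats.

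**Figure D1:**
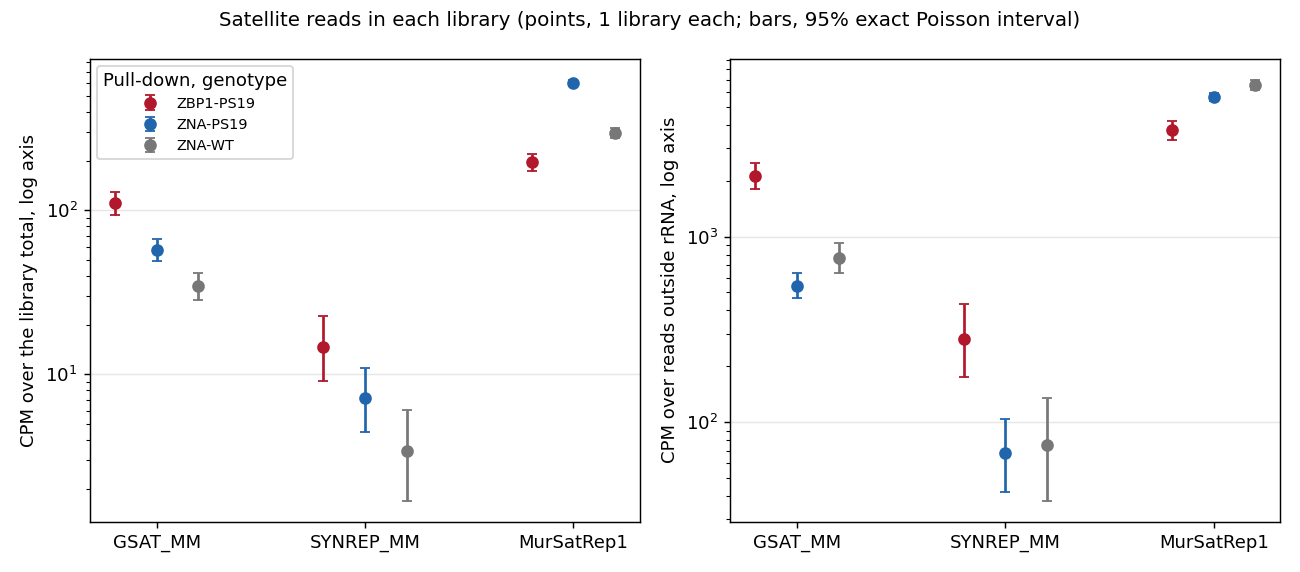
Reads on each satellite name as CPM over the library total (left) and as non-rRNA CPM (right), on log axes; each point is 1 library and each bar its 95% exact Poisson interval. GSAT_MM and SYNREP_MM are highest in ZBP1-PS19 on both axes, and MurSatRep1 is lowest there; heights of different names are not comparable, since the counts carry no repeat length.

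The antibody comparison set ZBP1 against ZNA within PS19. GSAT_MM was 1.93-fold higher in ZBP1-PS19 per library total (1.54 to 2.41) and 3.90-fold higher per reads outside rRNA (3.12 to 4.87). SYNREP_MM was 2.05-fold higher (1.06 to 3.94) and 4.14-fold higher (2.15 to 7.97). MurSatRep1 was 3.06-fold lower (2.69 to 3.48) and 1.51-fold lower (1.33 to 1.72). The sign of each name was thus the same on both scales, with the major satellite and SYNREP_MM up and MurSatRep1 down.

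These values were read against all repeat names that reached 20 reads in all and 1 CPM on average in the 2 libraries, using the log2 ratio of CPM with 1 added to each value. Per library total, none of the 3 satellite names was at least 2-fold higher in ZBP1 on this scale, against 0.293% of the 682 names compared, and 1, MurSatRep1, was at least 2-fold lower, against 50.1%. Over all names compared, the median was -1.002 (interquartile range -1.49 to -0.48). GSAT_MM had 0.93, SYNREP_MM 0.94 and MurSatRep1 -1.61, which placed the first pair at ranks 4 and 3 of 682 and MurSatRep1 at rank 556, counted from the highest.

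Per reads outside rRNA, 2 of the 3 satellite names, GSAT_MM and SYNREP_MM, were at least 2-fold higher in ZBP1, against 8.09% of 680 names. None was at least 2-fold lower, against 7.94%. GSAT_MM had a log2 ratio of 1.93 and SYNREP_MM 1.83, at ranks 3 and 4, where the median over all names was -0.05. MurSatRep1 had -0.59, at rank 537.

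SINE names, short transposable elements that include the B1 and B2 families, had higher ZBP1 to ZNA ratios than LINE names, the long autonomous elements. The SINE median log2 ratio per reads outside rRNA was 1.08 over 31 names, and 1 of them, PB1D11 on 20 and 15 reads, lay above GSAT_MM. The LINE median was -0.47 over 138 names, and 0 of them lay above GSAT_MM or SYNREP_MM. MurSatRep1, in contrast, lay below all 31 SINE names and within the LINE range, with 83 LINE names above it.

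**Figure D2:**
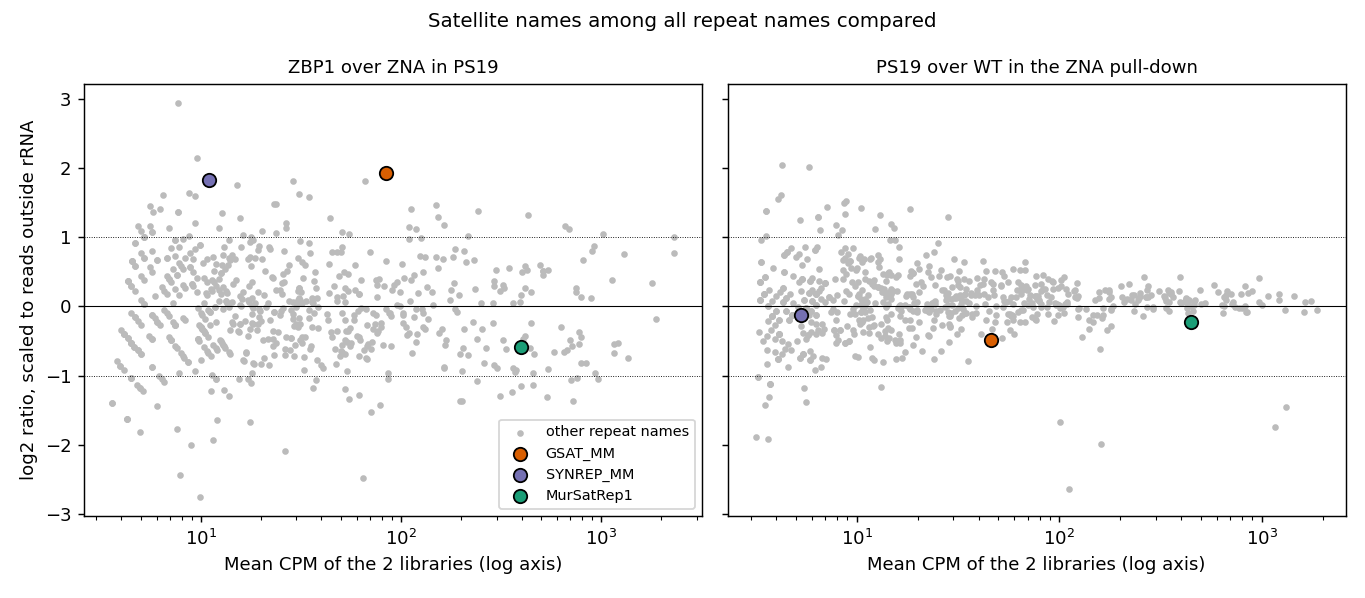
Log2 ratio scaled to the reads outside rRNA (vertical) against the mean CPM of the 2 libraries (horizontal, log axis) for every repeat name compared, for ZBP1 over ZNA in PS19 (left) and PS19 over WT in the ZNA pull-down (right); dotted lines mark 2-fold. On the left GSAT_MM (1.93) and SYNREP_MM (1.83) lie above the 2-fold line and MurSatRep1 (-0.59) lies below 0; on the right all 3 lie between 0 and the lower 2-fold line.

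The genotype comparison set PS19 against WT within the ZNA pull-down. Per library total, GSAT_MM was 1.66-fold higher in PS19 (1.30 to 2.13) and MurSatRep1 2.02-fold higher (1.87 to 2.19). SYNREP_MM was 2.12-fold higher, with an interval of 0.975 to 4.86 that includes no change. On the log2 scale with 1 CPM added these were 0.72, 1.01 and 0.90, all below the median of 1.24 over the 713 names compared. Of the 3 names, 1 (MurSatRep1) was at least 2-fold higher, against 74.3% of all names, and none was at least 2-fold lower, against 0.421%.

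Per reads outside rRNA the direction was opposite for all 3 names. GSAT_MM was 1.42-fold lower in PS19 (1.10 to 1.81) and MurSatRep1 1.16-fold lower (1.08 to 1.26). SYNREP_MM was 1.11-fold lower, and its ratio of 0.899 (0.414 to 2.07) left a difference of either sign within counting error. None of the 3 was at least 2-fold higher, against 3.52% of 711 names, or at least 2-fold lower, against 2.39%. GSAT_MM had a log2 ratio of -0.49, at rank 641 of 711 from the highest, where the median over all names was 0.07. MurSatRep1 had -0.22, at rank 566, and SYNREP_MM -0.13, at rank 524. The ratios of the 3 names thus lay below the median repeat on both scales. A change of scale shifts the log2 ratios of all names nearly alike, so the second scale is no further support for this position. For SYNREP_MM the position was not resolved, since its log2 counting interval per library total, -0.04 to 2.28, includes the median of 1.24. Whether the 3 names stood above or below WT depended on the scale. The change between scales follows by arithmetic from the rRNA share of these libraries, 89.4% in PS19 and 95.5% in WT. Why that share differed was not tested.

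ZNA-PS19 enters both comparisons above, as the denominator of one and the numerator of the other. ZBP1-PS19 and ZNA-WT, which differ in genotype and antibody together, give a ratio without it. GSAT_MM was 3.20-fold higher in ZBP1-PS19 than in ZNA-WT per library total (2.50 to 4.12) and 2.75-fold higher per reads outside rRNA (2.15 to 3.54). SYNREP_MM was 4.33-fold higher (1.997 to 9.95) and 3.73-fold higher (1.72 to 8.56). MurSatRep1 was 1.51-fold lower (1.32 to 1.74) and 1.76-fold lower (1.54 to 2.02). On the log2 scale per reads outside rRNA, GSAT_MM (1.44) stood at rank 20 of 572 names and SYNREP_MM (1.70) at rank 11. MurSatRep1 (-0.81) stood at rank 519, and the median over all names was 0.06. A rise of 2-fold or more was seen for 53 names. The SINE median was 1.16 over 30 names, of which 7 lay above GSAT_MM. GSAT_MM and SYNREP_MM thus stood further from the top than in the antibody comparison. Here the signs matched those of the antibody comparison within PS19. Each ratio here is the product of the ratios in the antibody and genotype comparisons, and ZBP1-PS19 also enters the antibody comparison. The match is therefore no independent check. The effects of genotype and antibody cannot be told apart in this pair.

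Reads on the 3 names together made up 0.615% (exact binomial interval 0.560 to 0.674) of non-rRNA reads in ZBP1-PS19, 0.627% (0.599 to 0.655) in ZNA-PS19 and 0.744% (0.700 to 0.789) in ZNA-WT. The intervals of this pooled share overlapped between the PS19 libraries. Per library total the 3 names together had 321 CPM in ZBP1-PS19, 663 in ZNA-PS19 and 334 in ZNA-WT. On that scale ZNA-PS19 was highest. The make-up of the satellite reads, which does not depend on how libraries are scaled, differed beyond counting error between ZBP1-PS19 and each ZNA library. This make-up rests on the same reads as the ratios above. The names were also chosen with earlier results of these data known, so the make-up is no independent support for those ratios. GSAT_MM and SYNREP_MM together took 39.1% (34.6 to 43.7) of the satellite reads in ZBP1-PS19, 9.77% (8.48 to 11.2) in ZNA-PS19 and 11.4% (9.55 to 13.4) in ZNA-WT.

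Per MurSatRep1 read there were 0.642 reads on GSAT_MM and SYNREP_MM in ZBP1-PS19, 0.108 in ZNA-PS19 and 0.128 in ZNA-WT. The ZBP1 value was 5.93-fold that of ZNA in PS19 (exact conditional interval 4.62 to 7.59) and 4.997-fold that of ZNA in WT (3.80 to 6.58). Between the PS19 and WT ZNA libraries the ratio of these values was 0.843 (0.659 to 1.08), an interval that includes no difference. GSAT_MM alone and SYNREP_MM alone gave 5.89 (4.54 to 7.62) and 6.26 (3.20 to 12.2) for ZBP1 against ZNA in PS19.

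The balance between GSAT_MM and SYNREP_MM was measured less precisely. There were 0.133 SYNREP_MM reads per GSAT_MM read in ZBP1-PS19, 0.125 in ZNA-PS19 and 0.0982 in ZNA-WT. The ratio of the first value to the second was 1.06 (0.530 to 2.13), so a difference of about 2-fold either way could not be seen at this depth.

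**Figure D3:**
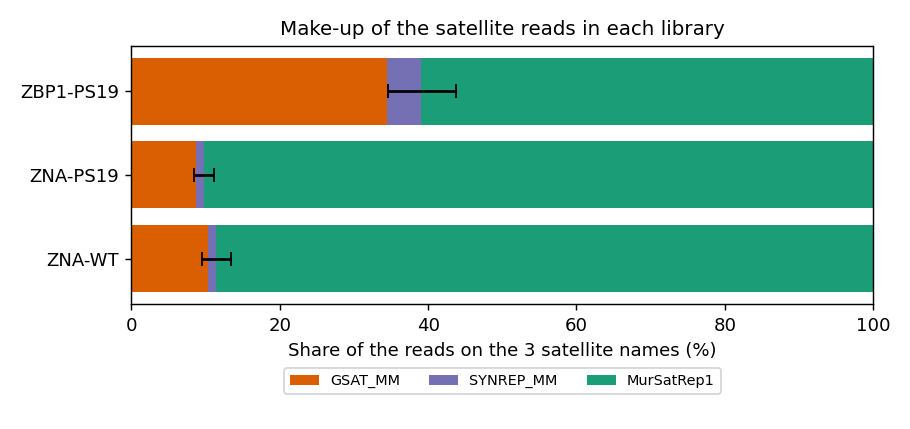
Share of the reads on the 3 satellite names that fell on each of them (horizontal, percent), 1 bar per library; black lines give the 95% exact binomial interval of GSAT_MM and SYNREP_MM together. That joint share is 39.1% in ZBP1-PS19 and 9.77% and 11.4% in the ZNA libraries of PS19 and WT.

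Of the other satellite names looked for, 5 were among the repeat names counted. CENSAT_MC had 0 reads in every library. The upper bounds of its exact Poisson intervals were 2.59, 1.26 and 1.14 CPM in ZBP1-PS19, ZNA-PS19 and ZNA-WT, and the limit of 3 reads set for a count of 0 corresponds to 2.10, 1.03 and 0.927 CPM. MurSAT1, a name added after the files were seen, had 1 read in ZNA-PS19. The other names were IMPB_01 with 69, 115 and 60 reads, ZP3AR with 66, 157 and 64 reads, and MMSAT4 with 22, 59 and 41 reads in the same order of libraries.

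In ZBP1 against ZNA within PS19, IMPB_01 was 2.49-fold higher per reads outside rRNA (1.82 to 3.38), ZP3AR 1.74-fold higher (1.29 to 2.34) and MMSAT4 1.55-fold higher, with an interval of 0.902 to 2.56. Per library total their ratios were 1.23 (0.898 to 1.67), 0.861 (0.636 to 1.15) and 0.764 (0.446 to 1.27), all with intervals that include no change. Reads on GSAT_MM per read on these 3 names pooled were 1.98-fold higher in ZBP1-PS19 (1.47 to 2.67). Reads on the 3 pooled per MurSatRep1 read were 2.97-fold higher there (2.34 to 3.75). Of the satellite names looked for, 6 had at least 20 reads in these libraries. Among these 6, MurSatRep1 was the one with a measured ratio below 1 per reads outside rRNA.

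In PS19 against WT, the ratios of IMPB_01, ZP3AR and MMSAT4 per reads outside rRNA were 0.903 (0.655 to 1.26), 1.16 (0.859 to 1.57) and 0.678 (0.447 to 1.04), each with an interval that includes no change. Per library total they were 2.12 (1.54 to 2.95), 2.72 (2.02 to 3.69) and 1.59 (1.05 to 2.44).

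The repeat names most like each satellite over the 3 libraries were taken as those with the smallest Euclidean distance between profiles of log2 CPM with 1 CPM added, each centred on its own mean, among 465 names outside rRNA that averaged 10 CPM or more. Nearest to GSAT_MM were MIR1_Amn (distance 0.07), MER5A (0.19), PB1D9 (0.29), B1_Mur1 (0.34) and LTR16C (0.37), where the median distance over all names was 1.47. Of these, MIR1_Amn, PB1D9 and B1_Mur1 are SINE names, MER5A is an old DNA transposon and LTR16C an old retroviral LTR. SYNREP_MM averaged less than 10 CPM and so could not appear in this list. Its distance to GSAT_MM, 0.15, was smaller than that of MER5A. MIR1_Amn had 28, 31 and 19 reads in ZBP1-PS19, ZNA-PS19 and ZNA-WT. The names nearest to SYNREP_MM were GSAT_MM (0.15), MIR1_Amn (0.18), PB1D9 (0.24), MER5A (0.25) and PB1D7 (0.28). Their order rested on the added 1 CPM, since SYNREP_MM had only 11 to 21 reads a library: with none added, an alternative chosen after seeing the data, PB1D7 was nearest (0.22) and GSAT_MM stood at place 4 (0.33).

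Nearest to MurSatRep1 were L1MD2 (0.04), L1MEf (0.06), RLTR11C_MM (0.08), RLTR11A (0.08) and Lx3_Mus (0.09), where the median distance was 0.66. L1MD2, L1MEf and Lx3_Mus are LINE names and the RLTR11 names are rodent LTRs. Lx3_Mus had 395, 2594 and 1307 reads in the same order of libraries. A profile over 3 libraries holds few degrees of freedom, and these distances are a description of the libraries.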

How the data were processed

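The authors deposited whole-number read counts per repeat name, 1 library per file and with no normalization, as the file headers and values show. Per the submitters' processing notes, Trim Galore 0.6.5, STAR 2.5.3a, featureCounts 2.0.4 and the build mm39 were used. The repeat annotation, strand setting and handling of multi-mapping reads are not given in the sources used here, and that handling bears strongly on satellites, whose copies are near identical.

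From the counts, CPM and CPM over reads outside LSU-rRNA_Hsa and SSU-rRNA_Hsa were computed. Ratios between libraries carry exact conditional (Clopper-Pearson) intervals, levels exact Poisson and shares exact binomial ones. For log2 ratios scaled to reads outside rRNA, library sizes were multiplied by that share over its geometric mean, so that the pseudocount of 1 CPM kept its size. Names that reached 20 reads in all and 1 CPM on average were compared, with a 2-fold limit. With 1 library per group no edgeR test could be fitted and no p-value is given; edgeR 4.0.16 (R 4.3.3) gave TMM and RLE factors only. Reads carry no molecular identifiers. Other satellite names came from a list of 12, of which 4 were listed; SINE and LINE names were assigned by patterns in the names. The named repeats were the 3 members, listed satellites with a read, the 5 nearest profiles per member (on log2 of CPM plus 1), and the names ranked next to a member, of which those a result turned on are printed; CENSAT_MC and MurSAT1 fell outside this rule and were named after their values were seen. The members and lists were chosen with earlier results of these data known. Alternatives were other scalings, pseudocounts, filters and fold limits. Scripts ran under scipy 1.17.1, pandas 2.3.3, numpy 2.4.6, matplotlib 3.10.9 and Python 3.11.15. No satellite sequence was used here.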

Additional observations from a re-analysis of the deposited data

How the results depend on the processing

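The scaling of the libraries moved the satellite ratios most. For PS19 over WT in the ZNA pull-down, the log2 ratios of GSAT_MM (0.72), SYNREP_MM (0.90) and MurSatRep1 (1.01) per library total changed sign under each other scaling, to -0.49, -0.13 and -0.22 per reads outside rRNA, -0.48, -0.12 and -0.21 under TMM, and -0.53, -0.16 and -0.26 under RLE. By construction these scalings remove the shift shared by names outside rRNA. For ZBP1 over ZNA in PS19 no sign changed. In the same order of scalings, GSAT_MM went from 0.93 to 1.93, 1.78 and 1.87, and MurSatRep1 from -1.61 to -0.59, -0.75 and -0.65. SYNREP_MM also moved, from 0.94 to 1.83, 1.69 and 1.77. These values stayed within its counting interval of 0.09 to 1.98, which is wide because SYNREP_MM had 21 reads in each library. For PS19 ZBP1 over WT ZNA, GSAT_MM was 1.30 under TMM and MurSatRep1 -0.81, -0.96 and -0.91. Pseudocounts of 0.1 and 5 CPM left all 18 recomputed satellite ratios within their counting intervals. With no pseudocount, 4 of the 5 nearest names of GSAT_MM, 4 of SYNREP_MM and 3 of MurSatRep1 were shared with those at 1 CPM.

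Names at least 2-fold higher in ZBP1 than in ZNA numbered 2 per library total, 55 per reads outside rRNA, 35 under TMM, 34 without a filter and 0 at a mean of at least 10 CPM, and 14 at 1.5-fold and 1 at 4-fold; lower names numbered 342, 54 per reads outside rRNA, 74 under TMM and 41 at 4-fold. Names at least 2-fold higher in PS19 than in WT numbered 530, 25 per reads outside rRNA, 25 under TMM and 27 at 4-fold; lower names numbered 3, 17 per reads outside rRNA, 19 under TMM, 14 without a filter, 1 at a mean of at least 10 CPM and 0 at 4-fold. Beyond the names left by a filter or limit and the shift that a scaling removes, the cause was not tested.

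No paired analysis was possible because each group has 1 library; leaving out a library was not run. Depth limits SYNREP_MM most, with 11 to 21 reads per library.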
